A study of Mus musculus with 12 samples.

Results

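The 41 genes described here carry sugar into the cell, break it down through glycolysis, decide what becomes of pyruvate and run the pentose phosphate pathway. They were listed by symbol, with earlier results of these data known. All 41 are among the 26639 features of the white adipose tissue (WAT) table and the 22851 features of the adipocyte culture table. By role they are 5 hexose transporters, 4 enzymes of hexose phosphorylation, 9 of upper glycolysis, 6 of lower glycolysis, 3 lactate dehydrogenases, 8 genes of the pyruvate dehydrogenase complex and its kinases, pyruvate carboxylase with phosphoenolpyruvate carboxykinase, and 4 enzymes of the pentose phosphate pathway. The study deleted Xap5, a nuclear protein encoded by Fam50a, in mature mouse adipocytes with a Cre recombinase driven by the Adiponectin promoter, and sequenced mRNA. Conditional knockout (cKO) WAT was set against wild-type (WT) WAT, both taken on postnatal day 42. Knockout (KO) cultures were set against WT cultures, both made from preadipocytes of the subcutaneous fat of newborn mice and collected on day 8 of adipogenic induction. All cultures received insulin, dexamethasone and IBMX to start differentiation and insulin alone afterwards. Since the Cre acts once the Adiponectin promoter is on, deletion in culture follows differentiation, and other cell types of the tissue keep the gene. Each of the 4 groups held 3 libraries, and the labels do not say whether these were separate animals or cultures, and p-values reflect only how these libraries vary, which could be technical variation.

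Glucose enters fat cells mainly through GLUT4, which insulin moves to the cell surface. Hexokinases trap the sugar as glucose 6-phosphate, which glycolysis turns into pyruvate or the pentose phosphate pathway uses to make NADPH for fatty acid synthesis. In fat cells much of the pyruvate enters mitochondria, where pyruvate dehydrogenase yields acetyl-CoA and pyruvate carboxylase yields oxaloacetate, and both feed the export of citrate from which fatty acids are built. Phosphoenolpyruvate carboxykinase serves the making of glycerol 3-phosphate for triglycerides in this tissue.

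The libraries held between 28844370 and 33997204 counts in WAT and between 10863158 and 21773610 in the cultures. Fam50a, the targeted gene, had TMM-scaled CPM values (reads of a gene relative to all counted reads) of 23.2, 16.7 and 28.9 in cKO WAT, against 35.3, 32.4 and 36.5 in WT WAT. It fell by 0.60 on the log2 scale (SE 0.20, adjusted p = 0.0394) on the TMM scale and was not called when libraries were scaled by their size only (log2 fold change 0.09, adjusted p = 0.740). In the cultures Fam50a stood at 46.1, 42.8 and 41.0 CPM in KO and 57.8, 52.0 and 45.2 CPM in WT, groups that overlap (log2 fold change -0.26, adjusted p = 0.134), and with a trend on transcript length and GC content taken out it was called lower (-0.34, adjusted p = 0.00691). With that trend taken out, Fam50a was not called in WAT (-0.12, adjusted p = 0.693). The mature adipocyte markers summed to 10200, 18140 and 7226 CPM in cKO WAT and to 55250, 58650 and 58970 CPM in WT WAT. Of these 9 markers 8 fell, and their median log2 fold change was -1.65. The 12 macrophage markers summed to 3814, 1936 and 4179 CPM in cKO WAT and to 466, 426 and 659 CPM in WT WAT, and 10 of them rose. No adipocyte or macrophage marker was at 0 in every library. Markers of preadipocytes and fibroblasts were higher as well, with sums of 3896, 2373 and 4197 CPM in cKO WAT against 1081, 862 and 915 CPM in WT WAT, and 6 of 8 rose. Skeletal muscle markers varied widely by library within both genotypes, with 1514, 271 and 51.2 CPM in cKO WAT and 32.3, 226 and 2166 CPM in WT WAT. In the cultures adipocyte markers summed to 28060, 23520 and 25920 CPM in KO and to 18630, 17320 and 17500 CPM in WT.

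**Figure D1:**
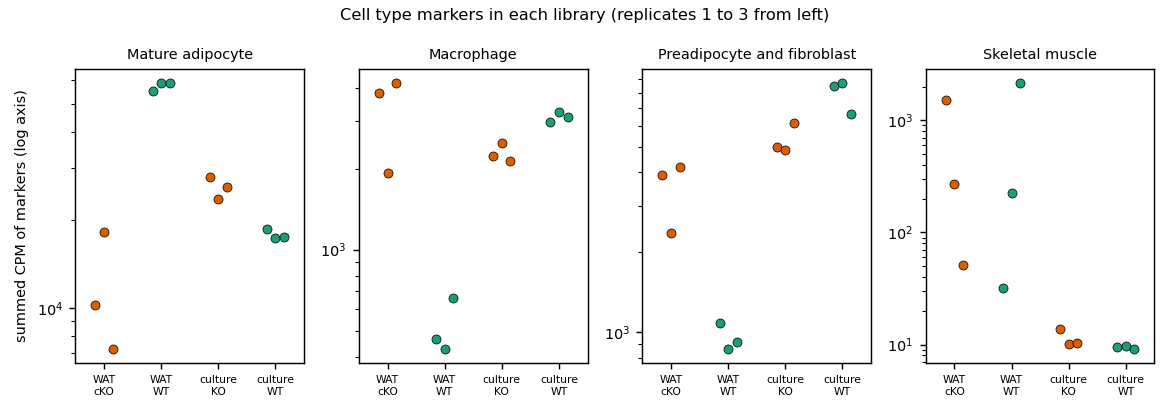
Summed CPM of the marker genes of 4 cell types (log axis) in each library, replicates 1 to 3 from left to right within each group. In cKO WAT the adipocyte sums lie between 7226 and 18140 CPM and the macrophage sums between 1936 and 4179 CPM, against 55250 to 58970 CPM and 426 to 659 CPM in WT WAT.

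The sequences shown here are start regions of 3 members that stand for the main patterns: Pcx and Ldha, which fell in cKO WAT, and Hk3, which rose there. They are bases upstream of a RefSeq transcription start on GRCm38.p6, read 5′ to 3′ along the gene. Capitals mark the letters ACGTG, the core of the element that hypoxia-inducible factors bind, or their reverse complement. Where CACGTG occurs, the E-box that ChREBP and MYC family factors bind, the core is present on both strands and overlaps itself. Pcx lies on the plus strand of chromosome 19 (chr19:4510222-4510471), Hk3 on the minus strand of chromosome 13 (chr13:55021476-55021635) and Ldha on the plus strand of chromosome 7 (chr7:46845554-46845803). None of these windows overlaps an exon of GENCODE M21, and the Ldha window lies within the RefSeq gene, downstream of an earlier start. The Hk3 window is printed only for bases 250 to 91 before its start, because the last 90 lie inside the RefSeq gene.
Pcx: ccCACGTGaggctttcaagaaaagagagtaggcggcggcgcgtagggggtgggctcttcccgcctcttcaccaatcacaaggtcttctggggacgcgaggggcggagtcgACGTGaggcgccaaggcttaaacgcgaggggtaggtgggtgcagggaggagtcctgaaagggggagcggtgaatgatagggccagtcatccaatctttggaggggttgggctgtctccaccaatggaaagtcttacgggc
Hk3: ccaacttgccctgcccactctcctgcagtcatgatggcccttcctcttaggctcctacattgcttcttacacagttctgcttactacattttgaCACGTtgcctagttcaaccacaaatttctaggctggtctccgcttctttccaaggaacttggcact
Ldha: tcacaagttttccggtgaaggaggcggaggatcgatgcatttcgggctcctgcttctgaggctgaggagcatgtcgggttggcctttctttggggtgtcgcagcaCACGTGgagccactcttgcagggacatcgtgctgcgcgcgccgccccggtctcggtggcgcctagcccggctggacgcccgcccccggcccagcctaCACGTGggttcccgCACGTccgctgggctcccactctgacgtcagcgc
The Ldha window held 2 copies of CACGTG, 145 and 48 bases before the start, and a further core match 34 bases before it. The Pcx window held 1 copy of CACGTG at 248 bases before the start, and the Hk3 window held 1 core match, whose first base lies 156 bases before the start, and no E-box. Pcx and Ldha each have 1 further start window in the table, not printed, which holds neither motif. RefSeq start regions were found for 39 of the 41 members, all but Slc2a3 and Slc2a4, with 58 windows among them, each searched over its full 250 bases. CACGTG was in 12.1% of these windows and in 6.02% of all 32851 start windows in the table. ACGTG on either strand was in 32.8% of the members' windows and in 16.6% of all, and the GC box GGGCGG on either strand was in 50% and 32.7%. These are matches of letters in fixed windows, read here as a description.

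In cKO WAT most of the pathway stood lower. Of the 41 members 30 fell and 5 rose, where 24.2% of all 16293 genes tested fell and 28.2% rose, and 52.4% were called in either direction. The 5 that rose were Slc2a1, Slc2a6, Hk1, Hk3 and Pdk3. Another 6 did not pass the test, namely Pfkfb3, Aldoc, Eno3, Ldhb, Dld and Pdk4. The median log2 fold change of the members was -1.74, beside 0.12 for all genes. Scaling by library size only moved the median of all genes to 0.80 and that of the members to -1.06, and then 25 members fell and 5 rose, where 8.78% of all genes fell, 54.2% rose and 63% were called. With a trend on transcript length and GC content taken out, 28 members fell and 5 rose, where 21.2% of all genes fell, 24.7% rose and 45.9% were called. The members took 1.25%, 1.88% and 1.06% of all counts in cKO WAT and 4.18%, 3.81% and 3.92% in WT WAT. In all 35 called members the groups did not overlap, but how often called genes stand apart was not counted over all genes. Of the 30 members that fell, 24 had their highest cKO level in replicate 2, the cKO library with the most adipocyte marker RNA. All 5 members that rose had their lowest cKO level in that same library. Of the 30 that fell, 22 did so by more than the adipocyte markers' median, though those markers themselves ran between -5.02 and -0.87. None of these counts was taken over all genes. In bulk tissue, fewer adipocytes and less RNA per adipocyte cannot be told apart, and the part of cell make-up in these results was not tested.

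In the cultures most members did not pass the test. Of the 40 members tested 5 rose, 4 fell and 31 did not pass, where 19.5% of all 12587 genes were called, 8.94% higher and 10.6% lower. The members' median log2 fold change was -0.03, beside -0.02 for all genes. With library-size scaling 3 members rose and 6 fell, where 6.26% of all genes rose, 14% fell and 20.3% were called. The 5 that rose were Ldhb and the 4 subunit genes of the pyruvate dehydrogenase complex in the list, and the 4 that fell were Aldoc, Hk3, Pdk4 and Hk2. Slc2a5 was too low to be tested.

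**Figure D2:**
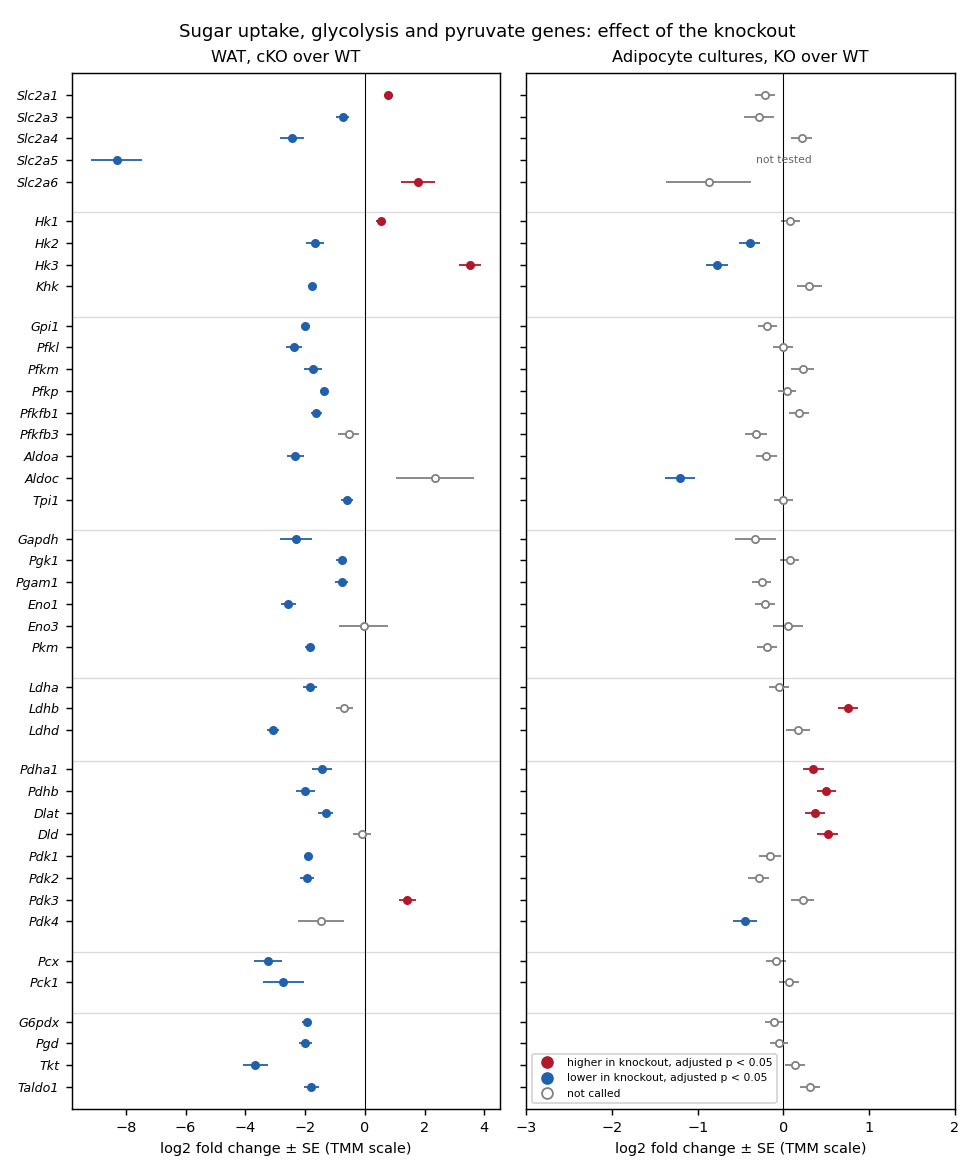
Log2 fold change ± SE of each member in WAT (cKO over WT, left) and in cultures (KO over WT, right), ordered by role, with filled points for adjusted p under 0.05. The horizontal scales differ: WAT effects run between -8.31 and 3.52, and culture effects between -1.21 and 0.75.

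Among the hexose transporters, GLUT4 and the fructose transporter fell in cKO WAT and both GLUT1 and GLUT6 rose. Slc2a4, which encodes the insulin-responsive GLUT4, had 76.2, 160 and 52.6 CPM in cKO WAT, against 436, 552 and 563 CPM in WT WAT. The groups were far apart, with the highest cKO value in replicate 2. Slc2a4 fell by 2.42 on the log2 scale (SE 0.40, adjusted p = 0.00277), which is 5.37-fold lower, and by 3.03 without cKO replicate 2. A numbered copy listed as Slc2a4-2 had 61.3, 107 and 47.0 CPM in cKO and 388, 375 and 430 CPM in WT WAT. It fell by 2.47 (SE 0.30, adjusted p = 0.00101), and whether it is a second locus is not known. In the cultures Slc2a4 had 80.2, 71.9 and 86.0 CPM in KO and 81.6, 61.9 and 62.1 CPM in WT, values that overlap (log2 fold change 0.21, SE 0.12, adjusted p = 0.234). With the length and GC trend taken out, it was called higher there (0.31, adjusted p = 0.0269).

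Slc2a5 encodes the fructose transporter GLUT5 and had the largest fall of all members. Its reads numbered 0, 29 and 7 in the cKO WAT libraries, against 1733, 1908 and 2944 in WT WAT, or 0, 0.712 and 0.159 CPM against 75.4, 79.6 and 122 CPM. One cKO library held no read and the other 2 stood far under every WT library. The log2 fold change was -8.31 (SE 0.84, adjusted p = 0.000656). The numbered copy Slc2a5-2, with 0, 0.368 and 0 CPM in cKO against 67.7, 65.0 and 96.9 CPM in WT, fell by 9.28 (SE 0.86, adjusted p = 0.000604). At such low cKO counts the size of the fold depends on a few reads, and without cKO replicate 2 the log2 fold change of Slc2a5 was -10.11 (adjusted p = 0.000139). In the cultures Slc2a5 had 2, 2 and 0 reads in KO and 1, 4 and 3 reads in WT, so both genotypes lay near the detection limit.

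Slc2a1 encodes GLUT1, the basal glucose transporter of most cells. It had 27.7, 23.2 and 26.0 CPM in cKO WAT, against 16.5, 13.4 and 14.7 CPM in WT WAT. All 3 cKO libraries stood above all WT libraries, and Slc2a1 rose by 0.78 on the log2 scale (SE 0.14, adjusted p = 0.00407). In the cultures its level was far higher, 189, 179 and 168 CPM in KO and 211, 236 and 175 CPM in WT, and did not pass the test (log2 fold change -0.22, SE 0.12, adjusted p = 0.194). Slc2a6 encodes GLUT6, a transporter found in lysosomal membranes. It had 5.07, 2.41 and 2.81 CPM in cKO WAT and 0.435, 0.834 and 1.69 CPM in WT WAT, groups that do not overlap. It rose by 1.79 (SE 0.57, adjusted p = 0.0322), a call that was lost without cKO replicate 1 (1.38, adjusted p = 0.122), without WT replicate 1 (1.43, adjusted p = 0.0724) and without WT replicate 2 (1.68, adjusted p = 0.108). Without WT replicate 3 the rise was 2.42 (adjusted p = 0.0192). In the cultures Slc2a6 was under 1.18 CPM in every library, with 3, 19 and 6 reads in KO and 7, 14 and 14 reads in WT. It did not pass there (log2 fold change -0.87, SE 0.49, adjusted p = 0.218). Slc2a3, the gene of GLUT3, fell by 0.74 in cKO WAT (SE 0.21, adjusted p = 0.0221) and was not called with library-size scaling (-0.06, adjusted p = 0.819) or without cKO replicate 3, WT replicate 2 or WT replicate 3 (adjusted p between 0.0513 and 0.0706).

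Per kilobase of transcript and with numbered copies summed, GLUT4 remained the main hexose transporter of the tissue at 84.2% ± 6.58 of the 5 in cKO and 85.8% ± 1.95 in WT WAT (SD, n = 3 each). The share of GLUT1 was 11.6% ± 5.02 in cKO against 1.09% ± 0.214 in WT, and that of GLUT5 was 0.132% ± 0.151 in cKO against 12.5% ± 1.97 in WT. In culture GLUT1 led, with 61.6% ± 2.87 in KO and 67.4% ± 3.70 in WT. These shares are within a library, and tissue and culture stand side by side without a test.

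**Figure D3:**
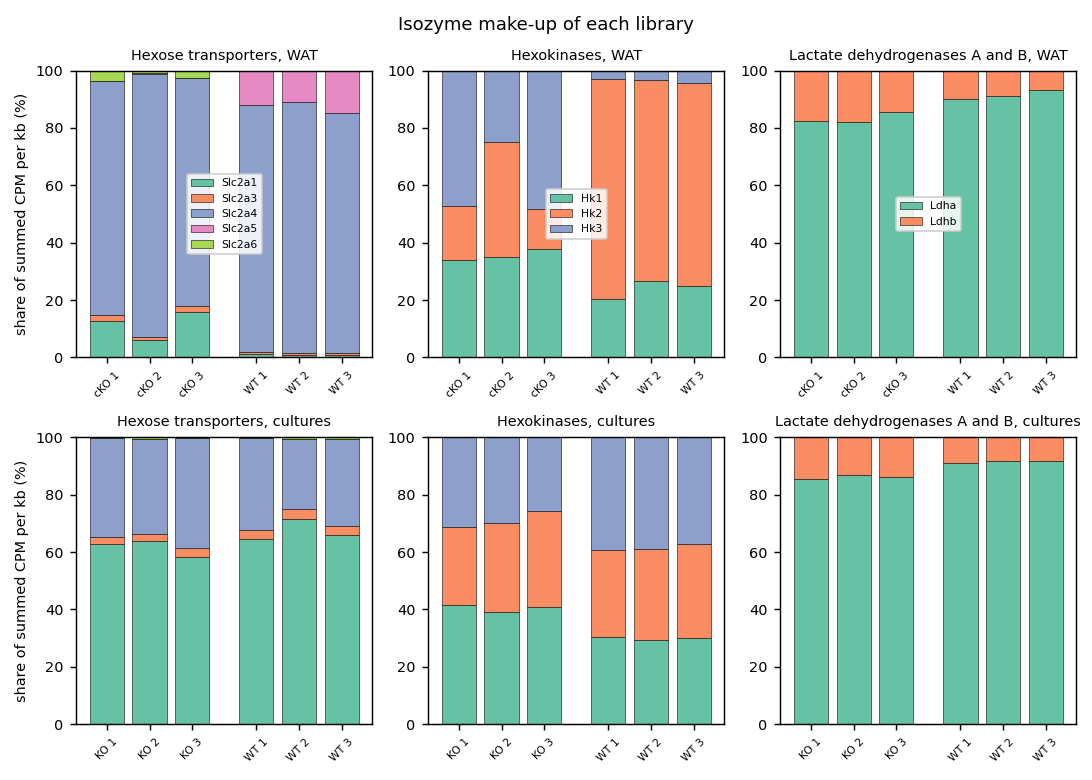
Share of each isozyme in the summed CPM per kilobase of its family, in each WAT library (top) and culture library (bottom), with knockout bars left of WT bars. In WAT, Hk3 makes up between 25% and 48.1% of hexokinase RNA in cKO libraries and between 2.82% and 4.39% in WT libraries.

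The hexokinases, which phosphorylate glucose on entry, went in opposite directions in the tissue. Hk2, the insulin-regulated hexokinase of muscle and fat, had 46.6, 75.9 and 31.8 CPM in cKO WAT, against 179, 159 and 156 CPM in WT WAT. Every cKO library was below every WT library, and Hk2 fell by 1.67 on the log2 scale (SE 0.30, adjusted p = 0.00361). The low numbered copy Hk2-2, with 0.333, 1.1 and 0.272 CPM in cKO and 2.09, 2.92 and 1.98 CPM in WT WAT, fell by 2.03 (SE 0.61, adjusted p = 0.0262). Hk3, a hexokinase of myeloid cells, had 68.6, 28.1 and 64.0 CPM in cKO WAT, against 3.87, 4.46 and 5.70 CPM in WT WAT. The lowest cKO library, replicate 2, was still several times the highest WT library. Hk3 rose by 3.52 (SE 0.37, adjusted p = 0.000716), which is 11.4-fold. The macrophage markers given above were highest in the same cKO libraries, replicates 1 and 3, and their part in the Hk3 result was not tested.

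Hk1, the hexokinase of most tissues, had 65.9, 52.3 and 66.6 CPM in cKO WAT, against 37.4, 47.8 and 42.7 CPM in WT WAT. The groups were apart by a small margin, and Hk1 rose by 0.53 (SE 0.15, adjusted p = 0.0221). That call was lost without cKO replicate 1 (0.46, adjusted p = 0.0819), cKO replicate 3 (0.46, adjusted p = 0.0605), WT replicate 1 (0.44, adjusted p = 0.0737) or WT replicate 3 (0.53, adjusted p = 0.0660). Khk, the ketohexokinase that phosphorylates fructose, had 13.9, 11.7 and 15.1 CPM in cKO WAT, against 45.6, 51.5 and 41.1 CPM in WT WAT. It stood lower in every cKO library and fell by 1.77 (SE 0.15, adjusted p = 0.000527). Together with Slc2a5, both fructose-specific members were therefore lower in the tissue. By share, Hk2 made up 24.3% ± 13.8 of the 3 hexokinases per kilobase in cKO WAT against 72.5% ± 3.67 in WT WAT, Hk3 40.1% ± 13.1 against 3.51% ± 0.804, and Hk1 35.6% ± 1.93 against 24.0% ± 3.2 (SD, n = 3 each).

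In culture Hk3 went the other way. It had 67.0, 66.9 and 56.3 CPM in KO, against 111, 125 and 89.5 CPM in WT, with no overlap, and fell by 0.78 on the log2 scale (SE 0.13, adjusted p = 0.000224). Macrophage markers summed to 2222, 2501 and 2139 CPM in KO cultures and 2975, 3254 and 3114 CPM in WT cultures, with 4 of 12 lower, none higher and none at 0 in every library, and their part in this result was not tested. Hk2 had 101, 120 and 127 CPM in KO, against 146, 175 and 136 CPM in WT, also without overlap. It fell by 0.39 (SE 0.12, adjusted p = 0.0238), a call that was lost without KO replicate 1 (-0.31, adjusted p = 0.118), KO replicate 2 (-0.42, adjusted p = 0.0616) or WT replicate 2 (-0.27, adjusted p = 0.235), and after removal of a trend with transcript length and GC content (-0.19, adjusted p = 0.124). Khk had 22.4, 19.3 and 19.0 CPM in KO and 18.0, 17.0 and 14.1 CPM in WT cultures. Hk1 and Khk did not pass, with log2 fold changes of 0.08 and 0.30 (adjusted p = 0.660 and 0.150), though both passed once that trend was taken out (0.32 and 0.36, adjusted p = 0.00648 and 0.0265).

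In upper glycolysis 7 of 9 genes fell in cKO WAT and none rose. Aldoa, the aldolase that splits fructose 1,6-bisphosphate, was the most abundant member per kilobase in all 4 groups. It had 1404, 1953 and 1060 CPM in cKO WAT, against 7758, 7243 and 7313 CPM in WT WAT. The highest cKO library lay far below the lowest WT library, and Aldoa fell by 2.34 (SE 0.28, adjusted p = 0.000983). Gpi1, the isomerase that makes fructose 6-phosphate, had 376, 367 and 355 CPM in cKO, against 1569, 1404 and 1384 CPM in WT WAT. Its 3 cKO values lay close together, and it fell by 1.99 (SE 0.15, adjusted p = 0.000434).

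The 3 phosphofructokinases, which commit sugar to glycolysis, all fell in cKO WAT: Pfkl by 2.37 (SE 0.26, adjusted p = 0.000792), Pfkm by 1.74 (SE 0.30, adjusted p = 0.00330) and Pfkp by 1.37 (SE 0.14, adjusted p = 0.000656). Pfkm, the muscle form, had 46.4 CPM in cKO replicate 1, the cKO library highest in muscle markers, and 23.2 and 20.8 CPM in the other 2, against 98.4, 97.3 and 106 CPM in WT WAT. Pfkfb1, whose enzyme sets the level of the activator fructose 2,6-bisphosphate, fell by 1.63 (SE 0.19, adjusted p = 0.000838), while Pfkfb3 of the same family did not pass (-0.54, SE 0.35, adjusted p = 0.226). Without cKO replicate 2, Pfkfb3 did pass (-0.95, adjusted p = 0.0343).

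Tpi1, the isomerase that interconverts both aldolase products, depended on scaling. It had 616, 867 and 531 CPM in cKO WAT, against 963, 1072 and 1011 CPM in WT WAT, without overlap on the TMM scale. It fell by 0.60 there (SE 0.21, adjusted p = 0.0464), and with library-size scaling its log2 fold change turned to 0.076 (adjusted p = 0.747). Once the length and GC trend was taken out, the value was -0.15 (adjusted p = 0.552), and testing without a count filter gave -0.59 (adjusted p = 0.0575). Leaving out any library other than cKO replicate 2 ended the call, with adjusted p between 0.0868 and 0.149. Tpi1 is among the 30 members counted as lower on the TMM scale.

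Aldoc, the brain-type aldolase, was high in a single cKO library. It had 0.880, 0.761 and 20.8 CPM in cKO WAT, against 2.66, 0.709 and 0.991 CPM in WT WAT, and did not pass (log2 fold change 2.37, SE 1.31, adjusted p = 0.164). Epithelial markers summed to 892 CPM in that same library, cKO replicate 3, and to between 3.51 and 43.8 CPM in the other 5 WAT libraries, and their part in the Aldoc value was not tested. Without that library the log2 fold change was -0.83 (adjusted p = 0.344), and without any other single WAT library it lay between 2.03 and 3.13. In culture Aldoc had the largest fall of the members, with 6.37, 9.84 and 7.74 CPM in KO against 16.6, 20.7 and 18.8 CPM in WT. The groups were far apart, and Aldoc fell by 1.21 (SE 0.17, adjusted p = 5.54e-05). Aldoa still made up 99.8% ± 0.0453 of aldolase RNA per kilobase in KO and 99.7% ± 0.0553 in WT cultures (SD, n = 3 each). None of the other 8 genes of upper glycolysis passed in culture, and their log2 fold changes ran between -0.32 for Pfkfb3 and 0.23 for Pfkm. Pfkfb3 did pass with library-size scaling (-0.38, adjusted p = 0.0342), and Pfkm once the length and GC trend was taken out (0.33, adjusted p = 0.0295).

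In lower glycolysis 5 of 6 genes fell in cKO WAT and none rose. Eno1, the enolase of most tissues, had 427, 716 and 439 CPM in cKO WAT, against 3244, 2967 and 3117 CPM in WT WAT. The cKO libraries lay at a small part of the WT level, and Eno1 fell by 2.56 (SE 0.26, adjusted p = 0.000644). The numbered copy Eno1-2 had 159, 248 and 130 CPM in cKO and 1108, 1035 and 1098 CPM in WT WAT and fell by 2.59 (SE 0.26, adjusted p = 0.000633). A near-identical gene, Eno1b, is listed separately, so how reads were split between them is uncertain. Pkm, pyruvate kinase of most tissues, had 762, 742 and 664 CPM in cKO against 2788, 2436 and 2454 CPM in WT WAT and fell by 1.82 (SE 0.17, adjusted p = 0.000612).

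Gapdh, glyceraldehyde 3-phosphate dehydrogenase, had 66.7, 35.9 and 26.8 CPM in cKO WAT, against 80.9, 304 and 252 CPM in WT WAT. Its WT libraries were far from each other, with replicate 1 well below the other 2, and the groups were just apart. Gapdh fell by 2.30 (SE 0.54, adjusted p = 0.00999), but the mouse genome holds many near-identical pseudogenes of it, and its low counted level beside its neighbours in the pathway makes the value uncertain. Pgk1 and Pgam1, the kinase and mutase of the next steps, each fell by 0.78 on the TMM scale (SE 0.18 and 0.21, adjusted p = 0.00976 and 0.0194). With library-size scaling neither passed, at -0.10 each (adjusted p = 0.604 and 0.665). Pgam1 also lost its call once the length and GC trend was taken out (-0.38, adjusted p = 0.176) and without cKO replicate 1, WT replicate 1, WT replicate 2 or WT replicate 3 (adjusted p between 0.0550 and 0.0782).

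Eno3, the muscle enolase, varied by library within both genotypes. It had 47.0, 9.80 and 11.2 CPM in cKO WAT and 8.75, 12.2 and 48.8 CPM in WT WAT, and Eno3-2 had 53.0, 7.54 and 5.27 CPM in cKO and 7.88, 12.6 and 57.0 CPM in WT WAT. Both were highest in cKO replicate 1 and WT replicate 3, the 2 libraries highest in muscle markers. Neither passed (Eno3 -0.04, adjusted p = 0.973, Eno3-2 -0.24, adjusted p = 0.859). In culture none of the 6 genes of lower glycolysis passed, with log2 fold changes between -0.33 for Gapdh and 0.07 for Pgk1. Pgam1 did pass once the length and GC trend was taken out (-0.28, adjusted p = 0.00871), and Gapdh without a count filter (-0.31, adjusted p = 0.0496). Eno1 had 1997, 1778 and 1731 CPM in KO and 2286, 2180 and 1929 CPM in WT cultures, values that overlap.

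**Figure D4:**
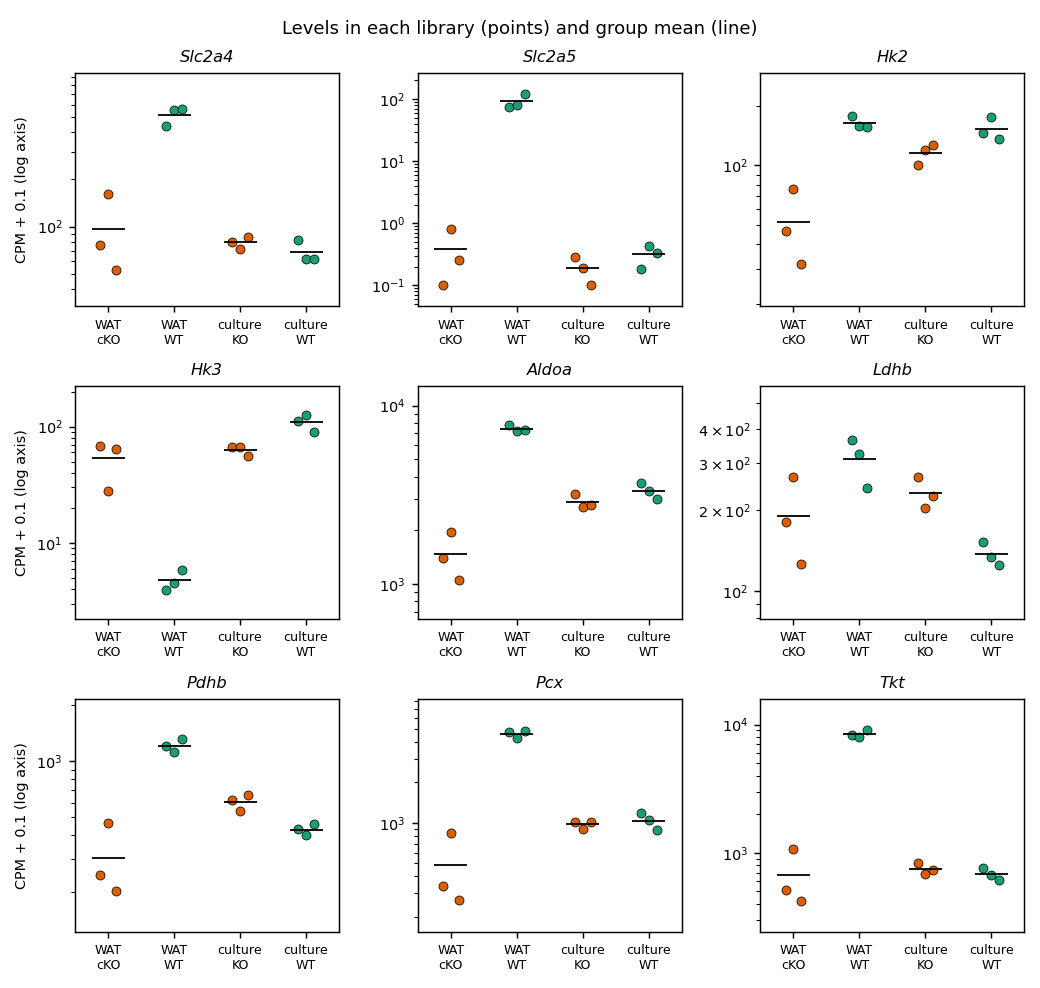
CPM + 0.1 (log axis) of 9 members in each library (points) with the group mean (line), knockout left of WT in tissue and in culture. In WAT all but Ldhb stand apart between genotypes, with Hk3 higher in cKO, while in culture the knockout points lie apart from WT for Hk2 and Hk3, which are lower, and for Ldhb and Pdhb, which are higher.

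All 3 lactate dehydrogenase genes had negative log2 fold changes in cKO WAT, and 2 of them passed. Ldha, whose subunit favours making lactate, had 1175, 1678 and 1033 CPM in cKO WAT, against 4551, 4704 and 4597 CPM in WT WAT. Every cKO library was well below every WT library, and Ldha fell by 1.83 (SE 0.24, adjusted p = 0.00129). Ldhd, a mitochondrial dehydrogenase of D-lactate, had 12.4, 19.3 and 13.6 CPM in cKO against 126, 136 and 119 CPM in WT WAT. The groups were far apart, and its fall of 3.07 (SE 0.20, adjusted p = 0.000413) was the fourth largest of the members. Ldhb, whose subunit favours the use of lactate, had 181, 266 and 127 CPM in cKO and 364, 322 and 242 CPM in WT WAT. The groups overlapped, and Ldhb did not pass (-0.70, SE 0.28, adjusted p = 0.0748), though it did without cKO replicate 2 (-1.03, adjusted p = 0.0105) and with DESeq2 (-0.75, adjusted p = 0.0227).

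Ldhb had the largest rise of the members in culture. It had 265, 204 and 225 CPM in KO cultures, against 152, 134 and 125 CPM in WT cultures, with no overlap. It rose by 0.75 (SE 0.12, adjusted p = 0.000178). Ldha had 2151, 1865 and 1960 CPM in KO and 2140, 2108 and 1950 CPM in WT cultures and did not pass (-0.05, adjusted p = 0.783). The Ldhb share of Ldha and Ldhb per kilobase was 13.9% ± 0.727 in KO and 8.44% ± 0.475 in WT cultures, and 16.8% ± 1.89 in cKO and 8.52% ± 1.61 in WT WAT (SD, n = 3 each). In both settings every knockout library had a larger Ldhb share than every WT library.

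The pyruvate dehydrogenase complex turns pyruvate into acetyl-CoA, and its kinases switch it off. In cKO WAT its subunits Pdha1, Pdhb and Dlat fell, and Dld, which other dehydrogenase complexes share, did not pass. Pdhb, the beta subunit of the first enzyme, had 246, 465 and 200 CPM in cKO WAT, against 1209, 1117 and 1313 CPM in WT WAT, far apart. It fell by 2.00 (SE 0.32, adjusted p = 0.00248). Pdha1, the alpha subunit, fell by 1.44 (SE 0.34, adjusted p = 0.0112) and did not pass with library-size scaling (-0.77, adjusted p = 0.0743). Dlat, the acetyltransferase, fell by 1.31 (SE 0.26, adjusted p = 0.00517). Dld had 126, 206 and 97.6 CPM in cKO and 193, 124 and 139 CPM in WT WAT, with overlap and a log2 fold change of -0.08 (SE 0.30, adjusted p = 0.829).

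In culture the same 4 subunit genes all rose. Pdhb had 624, 542 and 659 CPM in KO cultures, against 431, 400 and 458 CPM in WT cultures, and rose by 0.50 (SE 0.11, adjusted p = 0.00363). Dld had 502, 479 and 556 CPM in KO against 324, 316 and 436 CPM in WT and rose by 0.52 (SE 0.12, adjusted p = 0.00584). Neither gene's groups overlapped. Dlat had 281, 260 and 327 CPM in KO against 241, 204 and 224 CPM in WT and rose by 0.37 (SE 0.11, adjusted p = 0.0253). Pdha1 had 320, 357 and 373 CPM in KO against 266, 238 and 320 CPM in WT and rose by 0.35 (SE 0.12, adjusted p = 0.0398). KO replicate 1 and WT replicate 3 of Pdha1 were nearly equal, so its groups met.

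The smaller of these rises were less firm. The Pdha1 call was lost without WT replicate 1 (0.34, adjusted p = 0.104), without WT replicate 2 (0.27, adjusted p = 0.236), without KO replicate 2 (0.34, adjusted p = 0.121) or without KO replicate 3 (0.30, adjusted p = 0.107). Dlat was lost without KO replicate 3 (0.27, adjusted p = 0.136) or WT replicate 2 (0.33, adjusted p = 0.150), and Dld without WT replicate 2 (0.45, adjusted p = 0.0612). With library-size scaling Pdha1 (0.29, adjusted p = 0.0797) and Dlat (0.31, adjusted p = 0.0521) did not pass. Once the length and GC trend was taken out, Pdha1 (0.20, adjusted p = 0.0998) and Dld (0.22, adjusted p = 0.0529) did not pass. Pdhb passed in every setting run. Adipocyte markers were higher in KO cultures too, with 5 of the 8 tested called higher and none lower, and their part in these rises was not tested.

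The 4 pyruvate dehydrogenase kinases did not move together. In cKO WAT Pdk1 fell by 1.91 (SE 0.12, adjusted p = 0.000413) and Pdk2 by 1.94 (SE 0.24, adjusted p = 0.00105). Pdk3 had 16.7, 10.2 and 17.5 CPM in cKO WAT, against 4.22, 5.21 and 7.10 CPM in WT WAT, without overlap. It rose by 1.42 (SE 0.29, adjusted p = 0.00609), and its share of kinase RNA per kilobase was 9.98% ± 5.69 in cKO and 1.09% ± 0.649 in WT WAT (SD, n = 3 each). Pdk4, the kinase that fasting induces, had 60.3, 246 and 32.9 CPM in cKO and 512, 288 and 145 CPM in WT WAT. It varied widely within both genotypes and did not pass (-1.48, SE 0.77, adjusted p = 0.144), while without cKO replicate 2 it did (-2.77, adjusted p = 0.00811). In culture Pdk4 had 61.4, 67.7 and 96.6 CPM in KO against 104, 90.0 and 115 CPM in WT and fell by 0.45 (SE 0.14, adjusted p = 0.0259), with KO replicate 3 above WT replicate 2. That call was lost without KO replicate 1 (-0.33, adjusted p = 0.142), KO replicate 2 (-0.38, adjusted p = 0.124), WT replicate 1 (-0.44, adjusted p = 0.0588) or WT replicate 3 (-0.36, adjusted p = 0.0856). The other 3 kinases did not pass the main test in culture, where Pdk3 had 19.2, 19.7 and 21 CPM in KO and 16.4, 17.1 and 18.0 CPM in WT. Pdk2, at -0.29 there (adjusted p = 0.0996), did pass with library-size scaling (-0.34, adjusted p = 0.0474). It also passed without WT replicate 3 (-0.37, adjusted p = 0.0219).

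Both genes that handle oxaloacetate fell in cKO WAT. Pcx, pyruvate carboxylase, had 339, 844 and 269 CPM in cKO WAT, against 4691, 4284 and 4801 CPM in WT WAT. The highest cKO library, replicate 2, lay far below the lowest WT library, and Pcx fell by 3.25 (SE 0.46, adjusted p = 0.00158), which is 9.49-fold lower. Without cKO replicate 2 the log2 fold change of Pcx was -3.94. Pck1, the cytosolic phosphoenolpyruvate carboxykinase, had 320, 1315 and 227 CPM in cKO and 5274, 4189 and 2867 CPM in WT WAT. Its groups were apart, with a wide spread in both, and it fell by 2.73 (SE 0.69, adjusted p = 0.0135), or by 3.93 without cKO replicate 2. In culture Pcx had 1007, 905 and 1013 CPM in KO and 1178, 1046 and 878 CPM in WT, and Pck1 had 162, 157 and 170 CPM in KO and 178, 162 and 129 CPM in WT. Both overlapped, and neither passed (adjusted p = 0.660 and 0.757).

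All 4 pentose phosphate enzymes fell in cKO WAT. Tkt, transketolase of the non-oxidative branch, had 513, 1066 and 424 CPM in cKO WAT, against 8330, 7941 and 9054 CPM in WT WAT. It was the second most abundant member per kilobase in WT WAT and the eighth in cKO WAT. Tkt fell by 3.66 (SE 0.41, adjusted p = 0.000805), which is 12.7-fold lower. G6pdx, the X-linked glucose 6-phosphate dehydrogenase that starts the pathway, had 141, 168 and 129 CPM in cKO against 531, 590 and 567 CPM in WT WAT. The values were tight in both genotypes, and it fell by 1.95 (SE 0.15, adjusted p = 0.000474). Pgd, the next dehydrogenase, had 217, 305 and 183 CPM in cKO against 901, 904 and 1005 CPM in WT WAT and fell by 1.99 (SE 0.22, adjusted p = 0.000753). The numbered copy Pgd-2 fell by 1.96 (SE 0.22, adjusted p = 0.000834), with 124, 192 and 113 CPM in cKO against 525, 550 and 589 CPM in WT WAT. Taldo1, transaldolase, had 413, 622 and 348 CPM in cKO against 1677, 1560 and 1550 CPM in WT WAT, well apart, and fell by 1.79 (SE 0.24, adjusted p = 0.00138). All 4 also fell with library-size scaling. In culture none of the 4 passed in the main test, and log2 fold changes ran between -0.11 for G6pdx and 0.31 for Taldo1, which had adjusted p = 0.0623. Taldo1 did pass with DESeq2 (0.315, adjusted p = 0.0351) and without a count filter (0.327, adjusted p = 0.0350). With the length and GC trend taken out, Taldo1 (0.24, adjusted p = 0.0309) and Tkt (0.25, adjusted p = 0.0314) passed. Neither did with library-size scaling (adjusted p = 0.127 and 0.678). Taldo1 stood at 549, 449 and 464 CPM in KO and 434, 379 and 369 CPM in WT cultures, just apart. Tkt had 828, 684 and 736 CPM in KO and 758, 672 and 617 CPM in WT cultures, with overlap. G6pdx had 288, 271 and 283 CPM in KO and 311, 299 and 301 CPM in WT cultures, each KO library slightly below each WT library.

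Per kilobase, Aldoa and Ldha were among the leading members in every group. In cKO WAT Aldoa led with 951 ± 291 CPM per kilobase, followed by Ldha with 714 ± 187. In WT WAT Aldoa had 4802 ± 180, Tkt 2619 ± 175 and Ldha 2544 ± 43.2 CPM per kilobase, and the last 2 do not differ beyond their spread. In KO cultures Aldoa had 1872 ± 177 and Ldha 1098 ± 80.2 CPM per kilobase, and in WT cultures Aldoa had 2148 ± 214 and Ldha 1138 ± 56.1 (SD, n = 3 each). At the low end, Slc2a5 was last in cKO WAT and in both cultures, and Slc2a6 was last in WT WAT. The tissue and culture tables were scaled separately, so these levels stand side by side without a test.

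The effects in tissue and culture were compared directly by testing the difference of both log2 fold changes, WAT minus culture. Of the 41 members 28 had a called negative difference and 6 a called positive one, where 21.1% of the 14463 genes tested were negative, 27.7% positive and 48.8% called in all. Hk3 had the largest positive difference, at 4.33 (SE 0.40, adjusted p = 8.30e-06), since it rose in the tissue and fell in culture. Slc2a1 followed among the smallest p, with a difference of 1.04 (SE 0.18, adjusted p = 0.000595). The negative differences with the smallest p were Ldhd at -3.21 (SE 0.22, adjusted p = 2.05e-06) and G6pdx at -1.80 (SE 0.16, adjusted p = 7.94e-06). Gpi1, Khk and Tkt came next, at -1.76, -2.04 and -3.76. In culture, where neither passed, Ldhd had 21.3, 20.6 and 22.1 CPM in KO and 18.6, 17.4 and 21.1 CPM in WT, and Gpi1 had 834, 763 and 773 CPM in KO and 980, 897 and 829 CPM in WT. Pdhb fell in the tissue and rose in culture, with a difference of -2.47 (SE 0.34, adjusted p = 0.000108). The 7 members without a called difference were Slc2a3, Pfkfb3, Tpi1, Pgam1, Eno3, Dld and Pdk4, which does not show that their effects were equal. The differences for Slc2a5 and Slc2a6 rest on few culture reads. Slc2a5, too low to be tested in culture alone, is counted among the 28, and its difference mostly restates its fall in WAT.

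**Figure D5:**
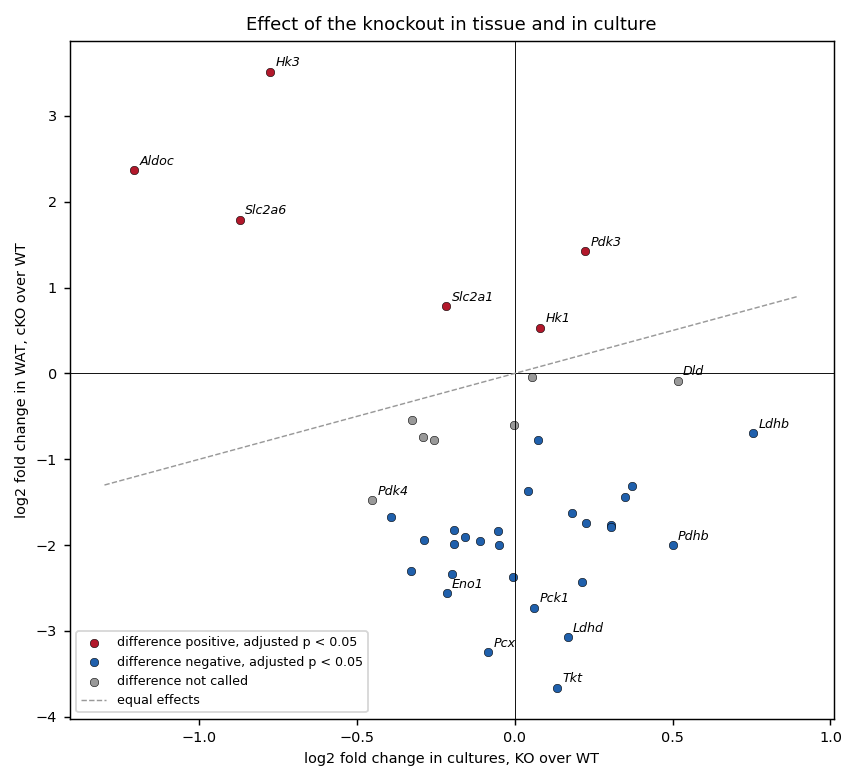
Log2 fold change of 40 members in WAT (cKO over WT, vertical axis) against that in cultures (KO over WT, horizontal axis), coloured by the test of the difference. Most points lie below 0 on the vertical axis and near 0 on the horizontal one, and Hk3 lies at 3.52 in WAT and -0.78 in culture.

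A further list of 47 genes of sugar metabolism that are not members was read in the same way. In cKO WAT 39 were tested, 23 fell and 7 rose, beside 24.2% and 28.2% of all genes. With library-size scaling 11 fell and 10 rose, beside 8.78% and 54.2% of all genes. H6pd, hexose 6-phosphate dehydrogenase of the endoplasmic reticulum, fell by 2.00 (SE 0.17, adjusted p = 0.000490). Its numbered copy H6pd-2 stood lower in every cKO library than in any WT library but did not pass (-2.38, SE 0.92, adjusted p = 0.0640). Sord, sorbitol dehydrogenase, which makes fructose, fell by 2.03 (SE 0.17, adjusted p = 0.000490), and Slc2a8, the gene of GLUT8, by 1.26 (SE 0.12, adjusted p = 0.000623). Of the genes that rose, Hif1a, the hypoxia-inducible factor, rose by 1.55 (SE 0.19, adjusted p = 0.00104). Eno2, the neuronal enolase, rose by 2.84 (SE 0.42, adjusted p = 0.00190), Slc2a10, the gene of GLUT10, by 1.22 (SE 0.25, adjusted p = 0.00595), and Pdp1, a phosphatase that turns pyruvate dehydrogenase on, by 1.49 (SE 0.32, adjusted p = 0.00744). With the length and GC trend taken out, Pdp1 did not pass (0.65, adjusted p = 0.106) and Hif1a rose by 0.82 (adjusted p = 0.00490).

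A few more listed genes were named after their values were seen. Mlxipl encodes ChREBP, the glucose-sensing transcription factor. It had 49.7, 86.6 and 34.2 CPM in cKO WAT against 253, 262 and 318 CPM in WT WAT and fell by 2.29 (SE 0.33, adjusted p = 0.00173). Mpc1, a subunit of the mitochondrial pyruvate carrier, had 136, 225 and 92.3 CPM in cKO against 877, 885 and 782 CPM in WT WAT and fell by 2.49 (SE 0.32, adjusted p = 0.00118). Neither gene's groups overlapped.

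In culture 37 of the 47 were tested, 6 rose and 2 fell, beside 8.94% and 10.6% of all genes. With library-size scaling 5 rose and 5 fell, beside 6.26% and 14% of all genes. Those that rose in the main test included the pyruvate carrier genes Mpc1, by 0.46 (SE 0.11, adjusted p = 0.00571), and Mpc2, by 0.38 (SE 0.11, adjusted p = 0.0234). Mpc1 did not pass once the length and GC trend was taken out (0.19, adjusted p = 0.0955). Pdhx, a further subunit of the pyruvate dehydrogenase complex, rose by 0.44 (SE 0.11, adjusted p = 0.00807) and Bpgm, which makes 2,3-bisphosphoglycerate, by 0.75 (SE 0.16, adjusted p = 0.00192). Rpe, an epimerase of the pentose phosphate pathway, rose by 0.39 (SE 0.13, adjusted p = 0.0378), and passed neither with library-size scaling (0.34, adjusted p = 0.0692) nor with that trend taken out (0.084, adjusted p = 0.551). The genes that fell were Mlxip, a relative of ChREBP, by 0.80 (SE 0.17, adjusted p = 0.00217), and the muscle mutase Pgam2 by 0.83 (SE 0.27, adjusted p = 0.0326).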

How the data were processed

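Polyadenylated RNA of 6 WAT and 6 culture libraries was sequenced after TRIzol extraction with an MGIEasy mRNA kit, per the labels' protocols. Raw counts of reads for each gene were deposited by the authors as a WAT table and a culture table. FastQC 0.11.2, cutadapt 1.11, HISAT2 2.1.0 and GRCm38 are named in the submitters' processing notes, while no source used here gives the counting tool, gene models or strandedness. Reads of near-identical or overlapping genes can therefore be split in ways that cannot be traced. The WAT table holds numbered copies of 6 members, given beside their symbols, and the culture table holds none. Whether a copy is a second locus is not known, so a WAT symbol alone may hold only part of its gene's reads.

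The members and lists were chosen with earlier results of these data known. Each comparison was fitted on its 6 libraries, and the difference of effects on all 12, with edgeR 4.0.16 and its quasi-likelihood F-test, under R 4.3.3 (filterByExpr with a minimum count of 10, TMM scaling, Benjamini-Hochberg adjustment over all genes tested, threshold 0.05). Unless a sentence names another tool, its adjusted p comes from that test. The SE is the log2 fold change divided by the square root of F. Levels are CPM scaled by TMM, so an abundant transcript that changes can move the scale, and scaling by library size was run beside it. The common biological coefficient of variation was 0.319 for WAT and 0.114 for cultures. The difference of effects used 1 estimate of spread per gene for both settings. Levels per kilobase used the longest coding GENCODE M21 transcript, with numbered copies summed. Genes given in every library were the called members with the largest changes in each direction, the most abundant of each role, those with the smallest p for the difference of effects, and any member whose direction turned with scaling. Gene coordinates and start regions are from RefSeq (GRCm38.p6). Alternatives were RLE size factors, library size only, leaving out each library in turn, the replicate number as a block, testing without a count filter, DESeq2 1.42.0, limma voom 3.58.1, summed copies, and removal of a length and GC trend (mgcv 1.9.3). Leaving out the 2 WAT libraries highest in muscle markers was chosen after seeing the data. Scripts were tested on simulated counts. Not every gene of the further list is reported here by name. Any 2 libraries of a group differed by more than sampling noise.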

Additional observations from a re-analysis of the deposited data

Results flagged for a closer look

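The effect of the deletion differed between tissue and culture for 34 members, by the edgeR test of the difference of log2 fold changes (WAT minus culture, adjusted over all 14463 genes tested). A positive difference means a higher log2 fold change in WAT than in culture. Both settings shared 1 estimate of spread per gene in that test, though the cultures varied less than WAT. Its p-values can therefore be too small where WAT varies more. For Tkt the SE of the difference was 0.39, beside 0.41 in WAT alone. The 6 positive differences were Hk3 at 4.33, Aldoc at 3.62, Slc2a6 at 2.74, Pdk3 at 1.24, Slc2a1 at 1.03 and Hk1 at 0.49. The Aldoc value rests on cKO replicate 3 and was 0.47 (adjusted p = 0.507) without it. The call for Hk1, whose adjusted p was 0.0491, was lost in 9 of the 12 fits that left out 1 library, and so was that for Aldoc. The call for Gapdh was lost in 8 of these fits and with library-size scaling (-1.29, adjusted p = 0.126), and that for Slc2a5 was lost in 4. With library-size scaling Hk2 (-0.61, adjusted p = 0.120) and Pgk1 (-0.17, adjusted p = 0.468) did not pass either. Among the transporters the negative differences were Slc2a4 at -2.60 and Slc2a5 at -6.81, and among the kinases of hexoses Hk2 at -1.25 and Khk at -2.04. Slc2a5 was too low to be tested in culture alone, so its difference mostly restates its fall in WAT and shows no culture effect. In upper glycolysis the differences were Gpi1 at -1.76, Pfkl at -2.33, Pfkm at -1.93, Pfkp at -1.38, Pfkfb1 at -1.77 and Aldoa at -2.10. Lower glycolysis had Gapdh at -1.94, Pgk1 at -0.81, Eno1 at -2.31 and Pkm at -1.60, and the lactate dehydrogenases had Ldha at -1.75, Ldhb at -1.42 and Ldhd at -3.21. For the pyruvate dehydrogenase complex and its kinases the differences were Pdha1 at -1.75, Pdhb at -2.46, Dlat at -1.65, Pdk1 at -1.72 and Pdk2 at -1.62. Those of the oxaloacetate genes were Pcx at -3.13 and Pck1 at -2.76, and those of the pentose phosphate pathway G6pdx at -1.80, Pgd at -1.91, Tkt at -3.76 and Taldo1 at -2.06. In cKO WAT 8 of 9 adipocyte markers fell and 10 of 12 macrophage markers rose. In KO cultures 5 of the 8 adipocyte markers tested rose and none fell, while 4 of 12 macrophage markers fell and 8 were not called. The part of these markers in the differences of effects was not tested.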

How the results depend on the processing

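The count of members lower in cKO WAT stayed between 23 and 33 in every setting run, beside 30. That of members higher in cKO WAT was 5 in most settings, 3 with the replicate block and 2 without the 2 libraries highest in muscle markers (23 lower there, with fewer samples). With 1 WAT library left out it ran from 3 to 5, with 3 without cKO replicate 1 or WT replicate 1. In culture the count of higher members was 3 with library size only. Once the length and GC trend was taken out it was 9, and the share of all genes was not taken there. With 1 library left out it ran from 2 to 5 (2 without WT replicate 2, 3 without KO replicate 3). The count of lower members in culture was 8 with the replicate block and 2 to 7 with 1 library left out (2 without KO replicate 1 or 2, 7 without WT replicate 3). Differences of effects gave 4 to 6 positive and 26 to 31 negative calls with 1 library left out. Outside the main fits, the share of all genes called was taken only for library size in WAT and culture and for that trend in WAT. The counts of the other settings stand without it. The cause of the changes in these counts was not tested. Tpi1 in WAT reversed to 0.076 with library size only. Calls kept in every setting were Hk3 and Pdk3 (higher) and 23 lower members in WAT, Ldhb, Pdhb, Hk3 and Aldoc in culture, and 4 positive and 24 negative differences. Same-numbered WAT libraries deviated with correlations of -0.354, 0.0206 and -0.213, which gives no sign of pairing by number in WAT. With 3 libraries per group, and muscle markers highest in cKO replicate 1 and WT replicate 3, these correlations cannot exclude pairing. Same-numbered culture libraries deviated with 0.244, 0.0459 and 0.289, which leaves pairing open there. In culture each KO library correlated best with the WT library of its own number, but WT replicate 2 did so with KO replicate 1. Low counts limit Slc2a5 and Slc2a6 in culture and Slc2a6 and Aldoc in WAT.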
